A study of Mus musculus with 6 samples.

Results

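Integrin and laminin subunit genes were compared between neonatal mouse ventricular cardiomyocytes with a hairpin against Gdf11 and cells with a control hairpin. The members were the protein-coding rows of the deposited table named Itga followed by a number or letter, Itgb1 to Itgb8, or Lama, Lamb or Lamc with a number from 1 to 5. This gave 37 genes of 54532, of which 26 encode integrin subunits and 11 laminin chains. This rule uses names and gene type, not expression values, though results of these data were known when the family was chosen.

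Ventricular cardiomyocytes were taken from C57BL/6 mice (C57BL/6J in the growth protocol) of 1 day of age and cultured as primary cells. The shGDF11 group had 3 libraries and carried an shRNA against GDF11, which is a growth factor related to TGF-beta. The control group had 3 libraries and carried the hairpin labelled sh-nc, which the treatment protocol calls sh-Vector. Both groups received their hairpin at a multiplicity of infection of 200 and were lysed after 48 h for total RNA sequencing, so exposure to hairpin delivery was shared by all libraries. The treatment labels end in 1, 2 or 3 and leave unsaid whether this marks a culture or a hairpin sequence, so p-values measure the spread between these libraries, which may be technical. The series title names heart failure under pressure overload and cardiac angiogenesis as its subject, and this comparison asks what changed in cultured cells when Gdf11 was lowered.

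Integrins are receptors made of 1 alpha and 1 beta chain that span the membrane and tie the extracellular matrix to the actin cytoskeleton. Laminins are trimers of 1 alpha, 1 beta and 1 gamma chain that form the sheet of the basement membrane around each heart muscle cell and under vessel endothelium. In cardiac muscle, integrins with the beta 1 chain and the dystroglycan complex both hold the cell to laminin, and loss of the laminin alpha 2 chain causes a muscular dystrophy.

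Listed genes held 15267083 to 16152910 reads per library, recovered from FPKM and gene length. FPKM scale fragments to gene length and library size. The deposited values use 1 fixed length per gene, so levels of different genes may be set side by side only roughly. Within groups, Spearman's rho across genes was 0.982 to 0.983 for shGDF11 and 0.972 to 0.979 for control libraries. Control replicate 1 lay farther from the other controls (chi-square per degree of freedom at least 16.3) than these lay from each other (6.22). Without it, 9 integrin and 5 laminin genes were called, against 10 and 6 with all libraries. Gdf11 had 0.614, 0.601 and 0.778 FPKM in shGDF11 libraries, against 2.76, 2.30 and 2.31 FPKM in control libraries. All 11 cardiomyocyte markers listed were tested, of which 5 fell (Actc1, Ryr2, Pln, Nkx2-5 and Myl3) and 2 rose (Tnni3 and Myl2). This is 63.6% called, beside 27.6% of all genes tested and 34.4% of those averaging 5 FPKM or more. The summed level of these markers was 7417 to 7670 FPKM in shGDF11 and 8969 to 9263 FPKM in control libraries.

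The laminin genes Lama2, Lama4, Lama5, Lamb2 and Lamc1 were higher with the Gdf11 hairpin, while integrins moved both ways. The call of Lama4 was lost when any 1 library was left out, and Lamb1 was not called. Of the 37 members, 30 passed the filter, a mean over the 6 libraries of 0.5 FPKM or more, and were tested. A gene was called at a limma adjusted p under 0.05 (Benjamini-Hochberg over all genes tested). Among laminin genes 5 rose and 1 fell of 10 tested, and among integrin genes 5 rose and 5 fell of 20 tested. The integrin count of 10 was 6 without shGDF11 replicate 1, 4 without shGDF11 replicate 2 or 3, and 5 without control replicate 2, whereas the laminin count was 5 without any 1 library. Over all 15418 genes tested 27.6% were called, 14.4% as higher and 13.1% as lower, and 45.8% had no overlap between the groups' values. Of all genes called, 52.4% were higher, and 66.2% after rescaling to TPM. The members' shares were 53.3% called and 76.7% without overlap. When only genes averaging 5 FPKM or more are counted, 34.4% were called, and 13 of 18 members. The median log2 fold change was 0.18 over the tested laminin genes and 0.10 over the tested integrin genes, against 0.01 over all genes tested. Itga10, Itgb4 and Itgb6 passed the filter with 1 group's mean under 0.5 FPKM, so these counts are a description of the genes that passed.

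Promoter sequences are shown for 3 members whose calls held under all 19 alternative settings, Lama2 and Lamb2, which rose, and Itga5, which fell. Each runs 5′ to 3′ on the gene's strand from 250 bases before to 50 after the annotated start (RefSeq, GRCm38.p6, where 23 of the 37 members had an entry). The RefSeq start lies inside the gene span of the deposited table for Lama2, 2816 bases downstream of its first base, and for Lamb2, 126 bases downstream, so the Lama2 window does not flank the start of the gene span given for Lama2 with its values. Capitals mark matches on either strand to TGANTCA (AP-1), CAGAC (the SMAD core), GGAATG (TEAD), ACGTG (the HIF core) or GGGCGG (GC box).
Lama2, chr10:27616893-27617192, minus strand: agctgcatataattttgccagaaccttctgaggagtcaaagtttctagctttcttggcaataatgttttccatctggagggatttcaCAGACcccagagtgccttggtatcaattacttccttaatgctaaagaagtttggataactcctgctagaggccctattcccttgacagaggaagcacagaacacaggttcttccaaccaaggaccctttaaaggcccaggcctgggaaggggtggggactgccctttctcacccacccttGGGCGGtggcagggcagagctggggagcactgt
Lamb2, chr9:108479612-108479911, plus strand: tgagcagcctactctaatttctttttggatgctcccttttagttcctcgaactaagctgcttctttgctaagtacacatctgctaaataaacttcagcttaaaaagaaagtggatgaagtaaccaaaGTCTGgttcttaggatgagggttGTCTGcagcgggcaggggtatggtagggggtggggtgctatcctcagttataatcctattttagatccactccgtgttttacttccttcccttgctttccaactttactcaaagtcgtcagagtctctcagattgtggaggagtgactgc
Itga5, chr15:103366742-103367041, minus strand: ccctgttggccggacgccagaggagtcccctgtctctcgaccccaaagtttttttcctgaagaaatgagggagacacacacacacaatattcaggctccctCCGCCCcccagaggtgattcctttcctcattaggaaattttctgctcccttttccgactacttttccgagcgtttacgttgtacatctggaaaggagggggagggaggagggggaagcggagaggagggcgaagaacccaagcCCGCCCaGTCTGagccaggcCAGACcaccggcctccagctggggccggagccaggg

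The SMAD core matched 1 time in the Lama2 window, 2 times in that of Lamb2 and 2 times in that of Itga5. It is a short motif, and 49.6% of the 32851 promoter windows hold it. A GC box matched 1 time for Lama2 and 2 times for Itga5, and 35.7% of windows hold one. None of these 3 windows held the letters of the AP-1, TEAD or HIF motifs, which 7.81%, 14.7% and 19.6% of windows hold. No searched motif overlapped another in these windows. GC content was 50.3% for Lama2, 44.0% for Lamb2 and 58.7% for Itga5, with a median of 52.7% over all windows.

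**Figure D1:**
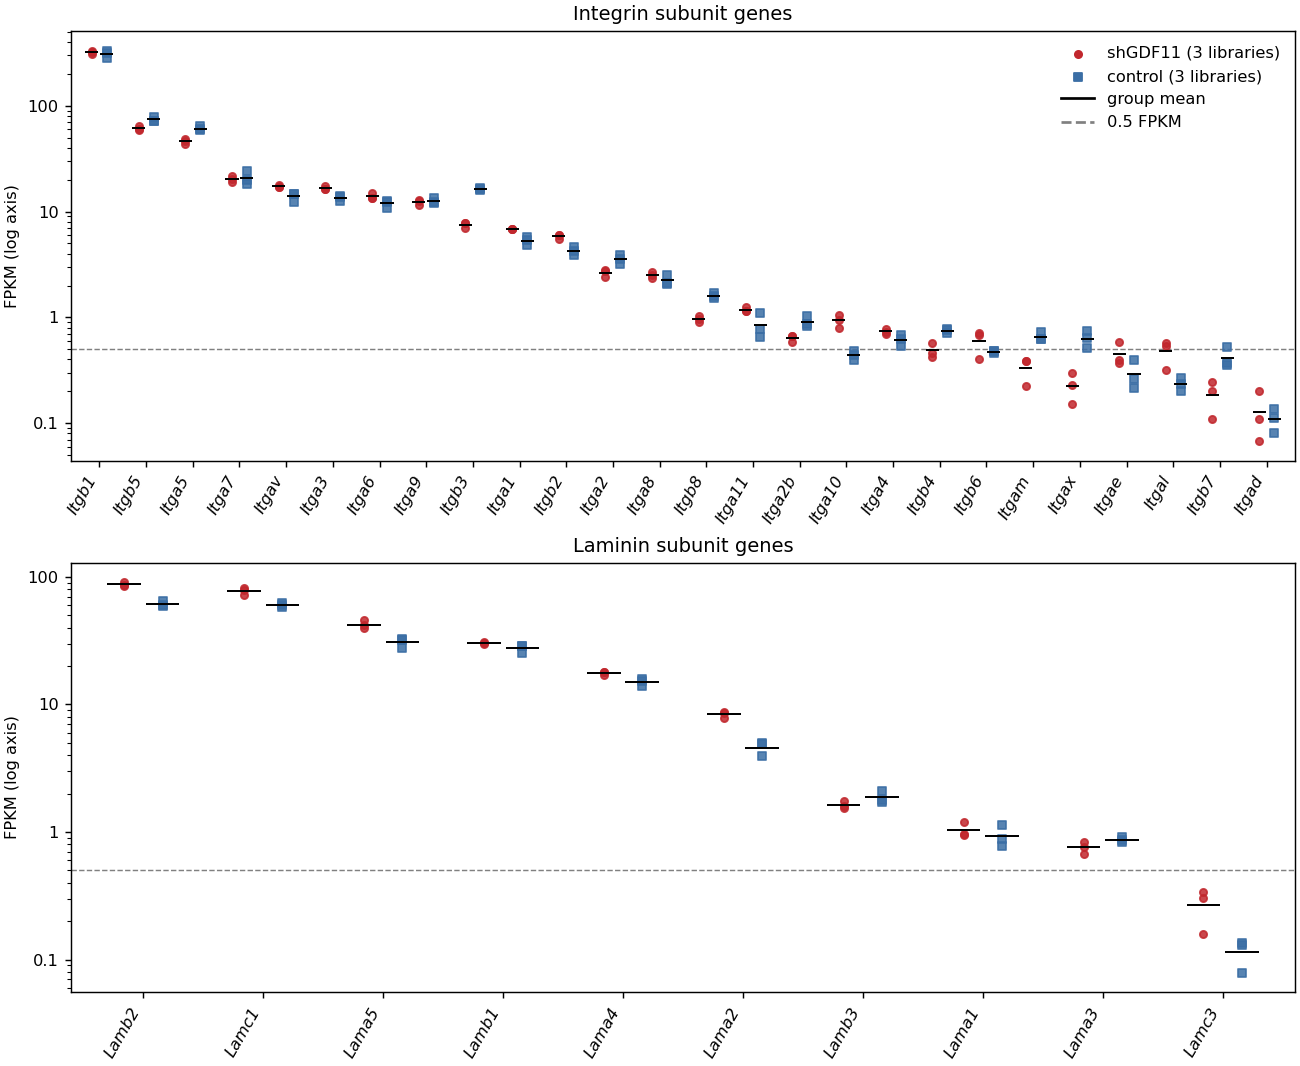
FPKM of the 26 integrin (top) and 10 laminin (bottom) subunit genes described here on a log axis, with 1 point per library, shGDF11 left of control, and a line at each group mean; genes run from high to low mean. Itgb1 stands above all other members, Itgb3 lies lower in shGDF11, and Lamb2, Lamc1, Lama5 and Lama2 lie higher.

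Among laminin alpha chains, Lama2, Lama4 and Lama5 rose, and Lama1 and Lama3 were not called. Lama2 encodes the alpha 2 chain of muscle laminin (minus strand of chromosome 10, 26980036 to 27619758, GRCm38 as for all gene positions here). It had 7.83, 8.58 and 8.77 FPKM in shGDF11 libraries, against 3.93, 4.88 and 4.96 FPKM in control libraries. Every shGDF11 library lay above every control library. The log2 fold change of Lama2 was 0.81 ± 0.10 (SE, limma adjusted p = 0.00187), and 0.87 by limma voom on recovered reads.

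Lama5, whose product is found in vessel and epithelial basement membranes, was the alpha chain gene with the highest level. It had 41.6, 39.6 and 45.6 FPKM in shGDF11 libraries, against 32.4, 31.8 and 27.6 FPKM in control libraries, with no overlap. Lama5 rose by 0.46 ± 0.0852 on the log2 scale (SE, limma adjusted p = 0.00879). Lama4, a chain of endothelial and cardiac laminins, had 17.1, 17.8 and 18.0 FPKM in shGDF11 libraries, against 13.9, 15.7 and 15.3 FPKM in control libraries. Its groups also stood apart, by a small margin, with a log2 fold change of 0.23 ± 0.0665 (SE, limma adjusted p = 0.041). Lama4 was not called when any 1 library was left out, with limma adjusted p of 0.0867, 0.131 and 0.128 without shGDF11 replicate 1, 2 and 3, and 0.0516, 0.0557 and 0.0608 without control replicate 1, 2 and 3.

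The low alpha chains were Lama1, the chain of embryonic laminin, and Lama3, which belongs to the laminin of epithelial anchoring. Lama1 ranged from 0.943 to 1.19 FPKM in shGDF11 and from 0.773 to 1.12 FPKM in control libraries, and its groups overlapped. Lama3 ranged from 0.676 to 0.833 FPKM in shGDF11 and from 0.839 to 0.921 FPKM in control libraries (log2 fold change -0.13, 95% interval -0.44 to 0.19, limma adjusted p = 0.52).

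Among beta chains Lamb2 rose, and Lamb1 and Lamb3 were not called. Lamb2, the beta chain of laminins at the neuromuscular junction and in the kidney filter, lies on the plus strand of chromosome 9 at 108479736 to 108490530. It had 85.8, 85.4 and 90.6 FPKM in shGDF11 libraries, against 64.7, 60.1 and 58.9 FPKM in control libraries. The lowest shGDF11 value was well above the highest control value. Lamb2 had the highest mean of the laminin genes in both groups, though in control libraries it was nearly level with Lamc1 (61.2 and 60.4 FPKM). Lamb2 rose by 0.51 ± 0.0603 on the log2 scale (SE, limma adjusted p = 0.00162).

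Lamb1, the beta chain of the widespread laminins, had 29.8, 30.1 and 31.1 FPKM in shGDF11 libraries, against 28.9, 28.8 and 25.4 FPKM in control libraries. These values did not overlap but lay close together, and the log2 fold change was 0.13 (95% interval -0.03 to 0.29, limma adjusted p = 0.194). Lamb3, the beta chain of the epithelial laminin, ranged from 1.53 to 1.745 FPKM in shGDF11 and from 1.73 to 2.08 FPKM in control libraries and was not called (limma adjusted p = 0.335).

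Lamc1, the gamma chain of most laminins (chromosome 1, 153218922 to 153332786, minus strand), rose. It had 72.7, 79.1 and 82.3 FPKM in shGDF11 libraries, against 62.8, 60.3 and 58.2 FPKM in control libraries. The groups of Lamc1 did not overlap. Lamc1 rose by 0.36 ± 0.0664 on the log2 scale (SE, limma adjusted p = 0.00839). Lamc3, another gamma chain, was below the filter, with 16 to 34 reads in shGDF11 and 8 to 13 reads in control libraries.

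Summed over the chains of each kind, laminin alpha levels were 67.6 to 74.3 FPKM in shGDF11 and 49.5 to 54.2 FPKM in control libraries. Laminin beta sums were 117.3 to 123.3 FPKM in shGDF11 and 86.4 to 95.4 FPKM in control libraries. Both sums were higher in every shGDF11 library. Lama2 made up 12.0% ± 0.628 of the alpha sum in shGDF11 and 8.85% ± 1.26 in control libraries (SD, n = 3 each), whereas Lama5 made up 60.3% ± 1.51 in shGDF11 and 58.8% ± 3.17 in control libraries, with overlap. Lamb2 held 73.2% ± 0.336 of the beta sum in shGDF11 and 67.4% ± 0.99 in control libraries (SD, n = 3 each). The sums and shares are given without a test.

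**Figure D2:**
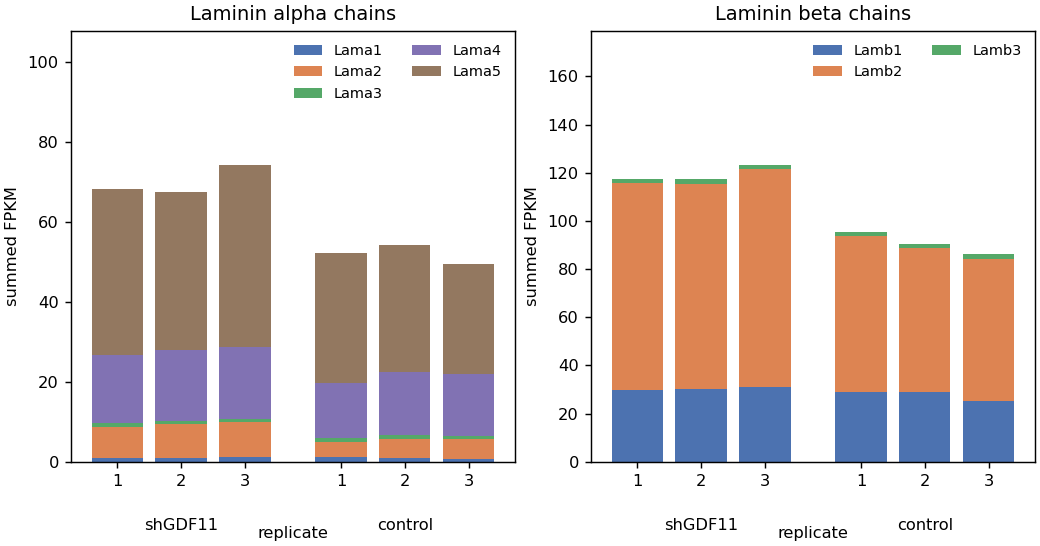
Summed FPKM of laminin alpha (left) and beta (right) chain genes in each library, shGDF11 left of control, with 1 coloured segment per gene. The bars of the 3 shGDF11 libraries are taller in each panel, with thicker Lama5, Lama2 and Lamb2 segments.

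Among integrin beta chains, Itgb3, Itgb5 and Itgb8 fell, Itgb2 rose, and Itgb1, Itgb4 and Itgb6 were not called. Of the beta chains known to pair with alpha v, Itgb3, Itgb5 and Itgb8 thus fell. Itgb1 and Itgb6, which also pair with it, were tested but not called (log2 fold change 0.04 and 0.16). Itgb3, also the beta chain of the platelet fibrinogen receptor, lies on the plus strand of chromosome 11 at 104608000 to 104670476. It had 7.86, 7.74 and 7.00 FPKM in shGDF11 libraries, against 16.1, 16.2 and 16.8 FPKM in control libraries. The groups were far apart relative to the spread within them, with 666 to 762 reads in shGDF11 and 1492 to 1617 reads in control libraries. Itgb3 fell by 1.07 on the log2 scale (SE 0.0664, limma adjusted p = 0.00028), to 46.0% of its control level, the largest difference among the tested members on this scale. Its share of the summed beta chain FPKM was 1.90% ± 0.0759 in shGDF11 and 4.01% ± 0.133 in control libraries (SD, n = 3 each).

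Itgb5, a beta chain of vitronectin receptors, had 64.1, 59.5 and 60.9 FPKM in shGDF11 libraries, against 78.6, 72.4 and 72.1 FPKM in control libraries, with a log2 fold change of -0.27 ± 0.0614 (SE, limma adjusted p = 0.0182). Itgb8, whose receptor with alpha v activates latent TGF-beta, had 0.897, 1.04 and 0.964 FPKM in shGDF11 libraries, against 1.52, 1.70 and 1.59 FPKM in control libraries, with a log2 fold change of -0.52 ± 0.111 (SE, limma adjusted p = 0.0144). Both genes were lower in every shGDF11 library. Itgb5 was not called without shGDF11 replicate 2 or 3 (limma adjusted p = 0.0814 and 0.0707) or after rescaling to TPM (limma adjusted p = 0.0671). Itgb8 was not called without shGDF11 replicate 1 or control replicate 2 (limma adjusted p = 0.0507 and 0.053), nor without the filter. By limma voom on recovered reads, without the 0.5 FPKM added in the main test, the log2 fold change of Itgb8 was -0.74 (adjusted p = 0.00045).

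Itgb1, the beta chain shared by most cardiac integrins, was the most abundant member. It had 319.6, 329.6 and 309.1 FPKM in shGDF11 libraries, against 284.6, 316.2 and 331.2 FPKM in control libraries. Its groups overlapped, and the log2 fold change was 0.04 (95% interval -0.13 to 0.22, limma adjusted p = 0.706). Itgb1 held 80.5% ± 0.691 of the summed beta chain FPKM in shGDF11 and 75.9% ± 2.05 in control libraries (SD, n = 3 each), without overlap. Itgb4, the partner of alpha 6 in hemidesmosomes, ranged from 0.424 to 0.573 FPKM in shGDF11 and from 0.710 to 0.778 FPKM in control libraries, and Itgb6, another alpha v partner, from 0.401 to 0.704 FPKM in shGDF11 and from 0.457 to 0.483 FPKM in control libraries. Neither was called (limma adjusted p = 0.137 and 0.563), though Itgb4 was called as lower by limma voom (adjusted p = 0.026).

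Of the integrin alpha chains that bind the RGD peptide of fibronectin and vitronectin, Itga5 fell and Itgav rose. Itga5, which with Itgb1 forms the main fibronectin receptor (minus strand of chromosome 15, 103344286 to 103366763), was the alpha chain gene with the highest level. It had 46.0, 43.7 and 48.4 FPKM in shGDF11 libraries, against 63.7, 60.6 and 58.6 FPKM in control libraries, without overlap. Itga5 fell by 0.40 on the log2 scale (SE 0.0633, limma adjusted p = 0.00469) and held 32.0% ± 1.02 of the summed alpha chain FPKM in shGDF11 and 40.8% ± 0.832 in control libraries (SD, n = 3 each).

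Itgav, the alpha v chain, had 18.0, 17.1 and 17.0 FPKM in shGDF11 libraries, against 12.4, 14.6 and 14.8 FPKM in control libraries. Every shGDF11 library was higher, with a log2 fold change of 0.31 ± 0.0811 (SE, limma adjusted p = 0.0289). It was not called without shGDF11 replicate 1, 2 or 3 (limma adjusted p = 0.0982, 0.0823 and 0.0768) or control replicate 2 (limma adjusted p = 0.0507), and 5.90% of its exon bases lie opposite an exon of another gene. Itga8, a receptor chain for nephronectin, ranged from 2.36 to 2.69 FPKM in shGDF11 and from 2.06 to 2.52 FPKM in control libraries and was not called (limma adjusted p = 0.305).

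The laminin-binding alpha chains did not follow a single pattern. Itga3 had 16.2, 16.5 and 17.5 FPKM in shGDF11 libraries, against 13.8, 14.04 and 12.6 FPKM in control libraries, and its groups did not overlap. Itga3 rose by 0.30 ± 0.0668 on the log2 scale (SE, limma adjusted p = 0.0168), but was not called without shGDF11 replicate 2 or 3 (limma adjusted p = 0.0597 and 0.0683). Itga6 had 13.3, 14.9 and 13.4 FPKM in shGDF11 libraries, against 10.9, 12.5 and 12.3 FPKM in control libraries, and was not called in the main test (log2 fold change 0.21, limma adjusted p = 0.0878) but was by limma voom (adjusted p = 0.0462).

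Itga7, the alpha chain of the main laminin receptor of striated muscle, had 20.1, 19.1 and 21.7 FPKM in shGDF11 libraries, against 24.0, 19.8 and 18.1 FPKM in control libraries. The groups overlapped (log2 fold change -0.02, 95% interval -0.27 to 0.24, limma adjusted p = 0.925). Itga7 lies 42.1 kb from Gdf11 on chromosome 10, on the opposite strand.

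Itga1 and Itga2, receptor chains for collagen, are also neighbours, 21.0 kb apart on the minus strand of chromosome 13, and moved in opposite directions. Itga1 had 6.85, 6.84 and 6.82 FPKM in shGDF11 libraries, against 4.79, 5.38 and 5.75 FPKM in control libraries, with a log2 fold change of 0.34 ± 0.0796 (SE, limma adjusted p = 0.02). Itga2 had 2.77, 2.76 and 2.42 FPKM in shGDF11 libraries, against 3.19, 3.89 and 3.54 FPKM in control libraries, with a log2 fold change of -0.36 ± 0.0988 (SE, limma adjusted p = 0.0352). Neither gene's groups overlapped. With any 1 library left out the log2 fold change of Itga1 was 0.28 to 0.40 and that of Itga2 -0.42 to -0.30, but several of these smaller fits did not call them. Itga1 was not called without shGDF11 replicate 1, 2 or 3 (limma adjusted p = 0.0648, 0.0707 and 0.0656) or control replicate 2 (limma adjusted p = 0.0521). Itga2 was not called without shGDF11 replicate 1, 2 or 3 (limma adjusted p = 0.073, 0.0823 and 0.113), control replicate 2 or 3 (limma adjusted p = 0.105 and 0.0732), or after rescaling to TPM (limma adjusted p = 0.132).

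Itga10, a collagen receptor chain known from cartilage, had 0.798, 0.954 and 1.06 FPKM in shGDF11 libraries, against 0.393, 0.486 and 0.437 FPKM in control libraries. Its level was low, at 68 to 89 reads in shGDF11 and 32 to 42 reads in control libraries, and 33.5% of its exon bases are shared with another gene on the same strand, where reads may not be counted for either. Itga10 passed the filter through its shGDF11 mean of 0.938 FPKM, since its control mean of 0.439 FPKM lay under 0.5 FPKM. Its call is thus a description of a gene that passed on its higher group. The log2 fold change was 0.61 ± 0.154 (SE, limma adjusted p = 0.0254), and 1.08 by limma voom without the damping of the pseudocount. It was not called without shGDF11 replicate 2 or 3 (limma adjusted p = 0.0925 and 0.0972) or control replicate 1, 2 or 3 (limma adjusted p = 0.0523, 0.0536 and 0.0539). The call of Itga10 was also lost without the filter (limma adjusted p = 0.0533) and when the fit held a replicate term (limma adjusted p = 0.0623). At a filter of 1 FPKM it was not tested. Itga11, a fibroblast collagen receptor chain, ranged from 1.15 to 1.25 FPKM in shGDF11 and from 0.657 to 1.099 FPKM in control libraries and was not called (limma adjusted p = 0.157).

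Itga4 and Itga9, receptor chains for VCAM1 and tenascin, were not called. Itga9 ranged from 11.6 to 12.8 FPKM in shGDF11 and from 12.1 to 13.3 FPKM in control libraries (log2 fold change -0.03, 95% interval -0.19 to 0.13, limma adjusted p = 0.784). Itga4 ranged from 0.701 to 0.775 FPKM in shGDF11 and from 0.537 to 0.675 FPKM in control libraries (limma adjusted p = 0.473), with 8.04% of its exon bases opposite an exon of another gene. Summed over all 18 alpha chain genes, levels were 141.6 to 147.7 FPKM in shGDF11 and 145.3 to 152.5 FPKM in control libraries, and the groups overlapped. Summed beta chain levels were 385.0 to 405.2 FPKM in shGDF11 and 386.6 to 427.1 FPKM in control libraries, also with overlap, and both sums' log2 ratios turned from negative to positive after rescaling to TPM.

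**Figure D3:**
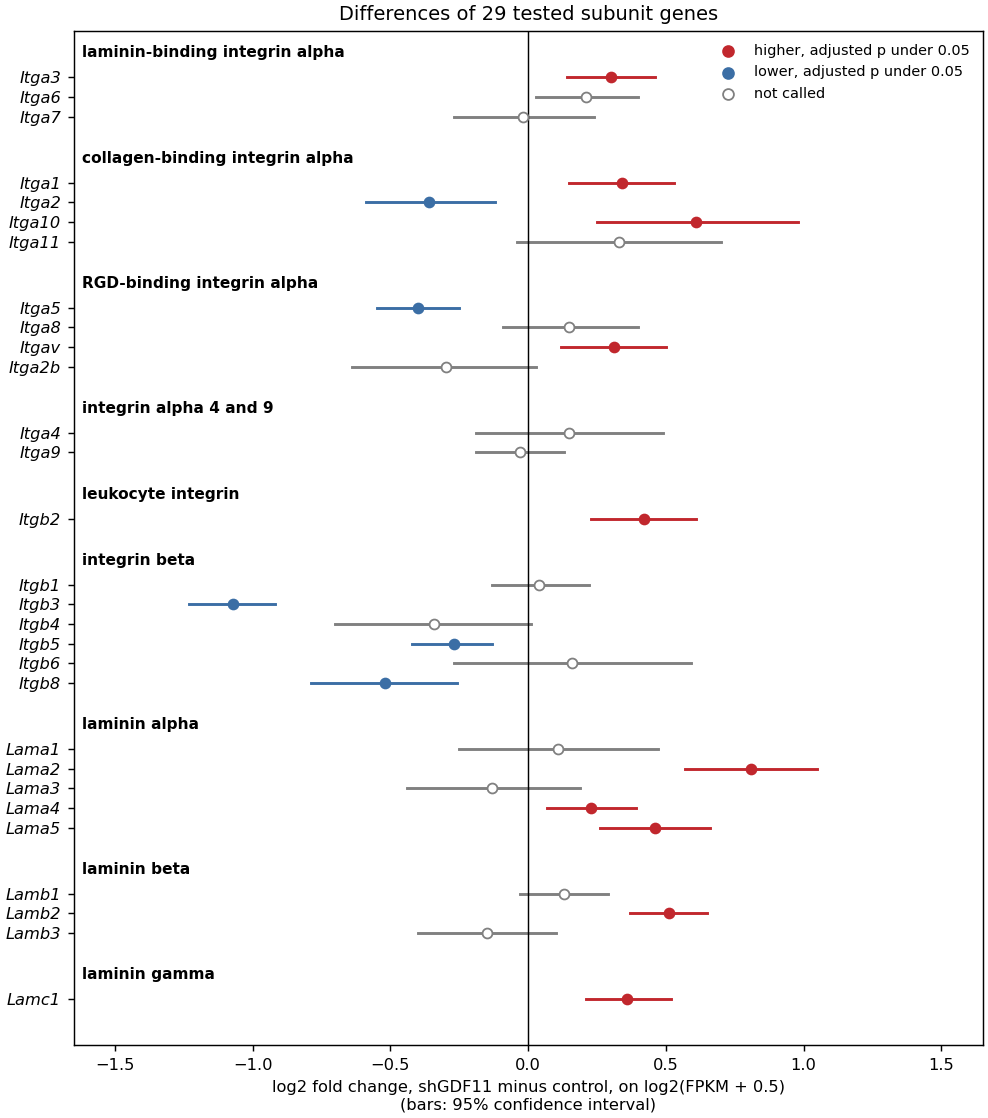
Log2 fold change (shGDF11 minus control) of 29 tested members on the log2(FPKM + 0.5) scale with its 95% interval, grouped by what the chain binds or by chain type. Red points were called as higher, blue as lower and open grey points were not called; Itgb3 lies farthest below 0, at -1.07, and Lama2 farthest above, at 0.81.

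The leukocyte integrin genes were low apart from Itgb2, the beta chain of the integrins of white blood cells. Itgb2 had 5.52, 5.96 and 6.05 FPKM in shGDF11 libraries, against 4.23, 4.599 and 3.92 FPKM in control libraries, and its groups did not overlap. Itgb2 rose by 0.42 ± 0.0814 on the log2 scale (SE, limma adjusted p = 0.0105), on 277 to 298 reads in shGDF11 and 195 to 234 reads in control libraries. Its known alpha partners were all below the filter. Itgam had 18 to 32 reads in shGDF11 and 49 to 59 reads in control libraries, and Itgax had 12 to 23 reads in shGDF11 and 39 to 59 reads in control libraries. Itgal had 34 to 61 reads in shGDF11 and 21 to 29 reads in control libraries, and Itgad had 5 to 15 reads in shGDF11 and 6 to 10 reads in control libraries. Among the partners, Itgam and Itgax were thus lower and Itgal higher in every shGDF11 library, without a test in the main fit. For Itgam, 68.7% of exon bases are shared with another gene on the same strand. Itgae, an alpha chain of tissue-resident lymphocytes, had 28 to 43 reads in shGDF11 and 16 to 30 reads in control libraries, and Itgb7, its partner, had 5 to 11 reads in shGDF11 and 16 to 24 reads in control libraries.

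Among leukocyte and macrophage markers the called genes were lower, unlike Itgb2. Of 12 such markers tested of 14 listed, 0 rose and 5 fell by limma (Lyz2, C1qa, C1qb, Laptm5 and Mrc1). This is 41.7% called, beside 27.6% of all genes tested and 34.4% of those averaging 5 FPKM or more. The summed level of the listed markers was 140.9 to 151.2 FPKM in shGDF11 and 183.9 to 205.9 FPKM in control libraries. None of the 14 was at 0 in all libraries, and Ptprc, the common leukocyte antigen, was at 0.0880 to 0.113 FPKM in shGDF11 and 0.0884 to 0.144 FPKM in control libraries. In bulk RNA, fewer cells of a type and less RNA per cell cannot be told apart.

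Itga2b, which with Itgb3 forms the platelet receptor, ranged from 0.580 to 0.669 FPKM in shGDF11 and from 0.820 to 1.04 FPKM in control libraries. The groups of Itga2b did not overlap, but it was not called (log2 fold change -0.30, 95% interval -0.64 to 0.03, limma adjusted p = 0.157). Of the 18 alternatives that tested Itga2b, 1 called it as lower (limma adjusted p = 0.0457). The 6 platelet and megakaryocyte markers summed to 3.68 to 4.64 FPKM in shGDF11 and 5.81 to 7.93 FPKM in control libraries, and 2 of them were tested. Pf4 fell (limma adjusted p = 0.00196), and Gp1ba was not called (log2 fold change 0.03, limma adjusted p = 0.944). Gp1bb was listed at 0 in all 6 libraries, but 92.9% of its exon bases are shared with other genes on the same strand. Endothelial markers summed to 57.6 to 60.3 FPKM in shGDF11 and 83.7 to 89.6 FPKM in control libraries, and 8 of 11 fell. Smooth muscle and pericyte markers summed to 408.9 to 413.9 FPKM in shGDF11 and 1015 to 1094 FPKM in control libraries, and 5 of 8 fell. Fibroblast markers summed to 377.1 to 394.4 FPKM in shGDF11 and 298.2 to 352.4 FPKM in control libraries, and 3 of 9 rose. The share called was 33.3% of fibroblast, 72.7% of endothelial and 62.5% of smooth muscle and pericyte markers, beside 27.6% of all genes tested. The fibroblast share is near the 34.4% of genes averaging 5 FPKM or more. Epicardial markers summed to 114.9 to 115.3 FPKM in shGDF11 and 125.3 to 139.3 FPKM in control libraries, and of 7 tested 1 rose and 2 fell (42.9% called). Schwann cell markers summed to 6.14 to 7.25 FPKM in shGDF11 and 3.09 to 4.10 FPKM in control libraries. Only 1 of the 6 Schwann cell markers, S100b, passed the filter, and it rose, so their sum says little of the cell type. Erythroid markers summed to at most 0.441 FPKM in shGDF11 and 0.426 FPKM in control libraries, and 0 of 5 were tested. The part of these cell types in the differences of Itgb3, Itga5 and the laminin chains was not tested.

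Of 35 integrin ligand genes listed, 27 were tested, 10 fell and 6 rose. This is 59.3% called, beside 27.6% of all genes tested and 34.4% of those averaging 5 FPKM or more, and the balance of directions was not tested. The median log2 fold change was -0.11. Ctgf, a matricellular protein that binds integrins, had 38.5, 38.2 and 36.4 FPKM in shGDF11 libraries, against 84.7, 85.3 and 93.1 FPKM in control libraries (log2 fold change -1.21 ± 0.0611 SE, limma adjusted p = 0.00014), with 23.2% of its exon bases opposite another gene. Spp1, osteopontin, a ligand of the alpha v beta 3 receptor, had 52.7, 51.9 and 47.1 FPKM in shGDF11 libraries, against 103.5, 113.4 and 113.1 FPKM in control libraries (log2 fold change -1.11 ± 0.0691 SE, limma adjusted p = 0.00028). Neither ligand gene's groups overlapped, and 18.8% of the exon bases of Spp1 are shared with another gene on the same strand. Tgfbi and Nov, other secreted integrin ligands, fell on the log2 scale by 0.97 and 0.83, and the list also held the falls of Tnc, Thbs1, Cyr61, Icam1, Vwf and Madcam1. The rises were Col1a2, Col3a1, Col6a1, Col6a2, Fbln5 and Vcam1, named like the falls beyond the first 4 after their values were seen.

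Among partners of laminin in the basement membrane and the dystroglycan complex, 33 of 33 listed genes were tested, and 7 rose and 5 fell (median log2 fold change 0.12). The share called was 36.4%, beside 27.6% of all genes tested and 34.4% of those averaging 5 FPKM or more. Fras1, a basement membrane protein, had 2.48, 2.69 and 2.64 FPKM in shGDF11 libraries, against 1.05, 1.098 and 1.15 FPKM in control libraries. It rose by 0.95 on the log2 scale (limma adjusted p = 0.00097). Sarcoglycans, which sit beside dystroglycan in the muscle membrane, moved both ways. Sgcb and Sgcd rose by 0.78 and 0.70 on the log2 scale (limma adjusted p = 0.00126 and 0.00206), as did Dtna, a dystrobrevin, by 0.60, while Sgca fell by 0.53 (limma adjusted p = 0.00615). The collagen IV genes Col4a1 and Col4a2, which form the other sheet of the basement membrane, fell by 0.43 and 0.36 on the log2 scale (limma adjusted p = 0.0146 and 0.0219). Neither collagen gene was called without shGDF11 replicate 1 or 2, nor Col4a2 without control replicate 2, with limma adjusted p up to 0.0615 for Col4a1 and 0.083 for Col4a2 over the alternatives. Sgca, Col4a1 and Col4a2 were named after their values were seen. The 5 falls of the list were 3 without shGDF11 replicate 1 or 2.

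Of the genes of focal adhesions, where integrins meet actin, 44 of 48 were tested, and 10 fell and 6 rose (median log2 fold change -0.07). The share called was again 36.4%, beside 27.6% of all genes tested and 34.4% of those averaging 5 FPKM or more. Flna, an actin-binding filamin, had 45.8, 47.8 and 50.3 FPKM in shGDF11 libraries, against 80.3, 78.1 and 73.1 FPKM in control libraries. Its groups did not overlap, and Flna fell by 0.68 on the log2 scale (limma adjusted p = 0.0008). Tgfb1i1, a paxillin relative known as Hic-5, fell by 0.66, and Tns2, a tensin, rose by 0.65 on the log2 scale (limma adjusted p = 0.0015 and 0.00243). Itgb1bp2, melusin, a muscle protein that binds the Itgb1 tail, fell by 0.44 on the log2 scale (limma adjusted p = 0.00569), and was named after its value was seen. Rescaled to TPM, 10 focal adhesion genes rose and 7 fell, so the balance of that list turns with the scaling, and without shGDF11 replicate 3 the rises were 3.

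**Figure D4:**
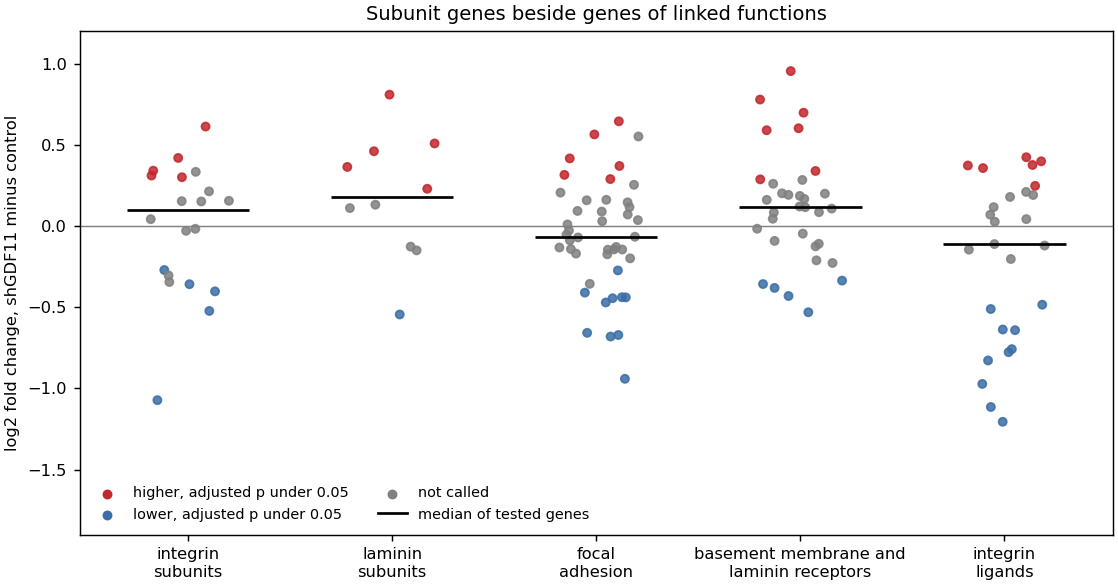
Log2 fold change (shGDF11 minus control) of each tested gene, 1 point per gene, for integrin and laminin subunits and for focal adhesion, basement membrane and integrin ligand genes, with a line at the median. Laminin subunits have the highest median, 0.18, and integrin ligands the lowest, -0.11.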

How the data were processed

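RNA was sequenced from 3 shGDF11 and 3 control libraries, grouped by treatment label. The deposited values are FPKM that the authors computed per Ensembl gene. HISAT2 2.0.5, featureCounts 1.5.0-p3 and CASAVA 1.8 are listed as tools, and GRCm38 and mm10 as builds, per the submitters' processing notes. No source used here gives the annotation release or strand setting, so reads of overlapping genes cannot be told apart. Exon overlaps were taken from GENCODE M21 (GRCm38). Of the 54532 deposited gene identifiers, 54409 were found there, and 53499 had the same coordinates.

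FPKM times gene length gave whole reads (100% of positive values within 0.05), and 3 reads, the floor, equal 0.18 to 0.191 FPKM at 1 kb, for counting error only. Genes averaging 0.5 FPKM or more were tested on log2(FPKM + 0.5), a scale that understates the change of low genes, with limma 3.58.1 (moderated, two-sided test with a variance trend, R 4.3.3) and Benjamini-Hochberg adjustment over all genes tested. With 3 against 3, a permutation test cannot go below p = 0.1, so none is given. The test was checked on simulated reads, where false calls lay mostly in genes far shorter than any member, and genes of 1 kb or longer gave none. The simulation gave every gene and library the same extra spread. It left out the greater distance of control replicate 1, so it cannot give the rate of false calls in these libraries. A first cutoff on the share of known changes recovered there was not met and was replaced by checks of calibration, direction and gene length.

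Members and lists were chosen with earlier results of these data known. Members are named, with every library's value for those called or abundant, and from each list the 4 genes of smallest p, except some genes, which are counted but not reported here. Alternatives were the pseudocount, filter, scaling, variance model, library weights, replicate block, gene set, limma voom on recovered reads and omission of each library.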

Additional observations from a re-analysis of the deposited data

How the results depend on the processing

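Each result was recomputed under 19 alternatives. Of the 16 called members, 8 were called under all of them, among them Itgb3, Itga5, Itgb2, Lama2, Lama5, Lamb2 and Lamc1, and 0 changed sign. Leaving out 1 library gave 2346 to 4238 called genes against 4253 (1263 to 2252 higher, 1083 to 1986 lower). For integrins it gave 4 to 9 called against 10, with 1 to 4 higher and 3 to 5 lower, 6 without shGDF11 replicate 1, 4 without shGDF11 replicate 2 or 3, and 5 without control replicate 2. For laminins it gave 5 against 6, since Lama4 dropped out each time. The log2 fold changes of members that lost a call stayed at 0.18 to 0.26 for Lama4, -0.30 to -0.23 for Itgb5, -0.56 to -0.49 for Itgb8, 0.23 to 0.36 for Itgav, 0.26 to 0.33 for Itga3 and 0.55 to 0.68 for Itga10. Focal adhesion rises ran from 3 to 8 and basement membrane falls from 3 to 5.

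Rescaled to TPM, 66.2% of called genes were higher, against 52.4%, with 1315 lower genes, 3 lower integrins and 10 higher focal adhesion genes. TPM also turned the log2 ratio of the integrin alpha and beta sums to 0.04 and 0.05, against -0.06 and -0.04, and those of the laminin alpha and beta sums to 0.52 and 0.49, against 0.43 and 0.39. TPM over protein-coding genes, chosen after seeing the data, gave 58.4% higher. Without the filter 3 integrins were higher. With the replicate number as a block, 6 integrins (2 higher) and 5 laminins were called. Same-numbered libraries did not deviate together (correlations 0.0153, 0.0149 and -0.0521), and not every library correlated best with its own number, so the numbers were not taken as pairs. Uncalled members changed sign near 0. Itgb1 was at -0.02 without control replicate 1. Itga7 was at 0.07 in TPM, 0.02 in protein-coding TPM, 0.02 with library weights, 0.02 without shGDF11 replicate 2 and 0.09 without control replicate 1, and at -0.10 without control replicate 3. Itga9 was at 0.06 in TPM, 0.01 in protein-coding TPM and 0.01 without shGDF11 replicate 1 or control replicate 1. The causes were not tested. Depth limits the 7 members below the filter, which had at most 61 reads in any library.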
